A study of Rattus norvegicus with 8 samples.

Results

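The genes that load amino acids onto transfer RNA (tRNA), carry amino acids into cells and make or convert them were followed in transplanted rat kidneys. A list of 38 such genes was drawn up by function: 18 cytosolic aminoacyl-tRNA synthetases, 10 plasma-membrane amino acid transporters and 10 enzymes of amino acid synthesis and conversion. It was chosen with earlier results of these data known, so its counts and medians beside all genes are descriptive. Array probes were assigned to a member by gene name or RefSeq accession. Of the 38 members, 35 had a probe and 31 were among the 24461 genes tested. The samples were 8 grafts from Dark Agouti (DA; RT1a) donor rats placed orthotopically into Lewis (LEW; RT1l) recipients, all inbred males with both own kidneys removed, after 25 min at 4 °C, and taken at 24 h. Grafts with a high weight difference came from donors 20 to 50% lighter than the recipient. Of the 3 high-difference groups, the first received one intravenous injection of 500 µg neutralizing anti-IL6 receptor antibody (anti-IL6R), the second one of 15 mg/kg prednisolone, a glucocorticoid, and the third neither. The fourth group, called low, came from donors 0 to 20% lighter and was also untreated. Each group held 2 biological replicates, so whole tissue of 2 animals stands behind each group mean. No isograft or kidney that was not transplanted was used here, so every group shared the allograft, the cold storage and the surgery.

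Aminoacyl-tRNA synthetases join each amino acid to its tRNA, the step that decides which residue the ribosome adds. When an amino acid runs short, uncharged tRNA activates the kinase GCN2 (Eif2ak4), which slows translation in general and favours translation of the transcription factor ATF4; other stress kinases, such as PERK in the endoplasmic reticulum, feed into the same step. In mammalian cells ATF4, paired with a C/EBP protein, is known to activate genes for synthetases, amino acid transporters and serine synthesis through a composite element whose core reads TGATGNAA. In the kidney, amino acids are also reclaimed from the filtrate by the proximal tubule, through other transporters that are not members of this list.

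Promoters of members that held this element are printed because they show where it lies relative to the gene's start. The RefSeq promoter windows of GRCr8, 250 bases before to 50 after the annotated start, covered 32 of the 38 members. TGATGNAA was searched on both strands, and 12 of the 32 windows (37.5%) held it, against 1332 of 33469 windows of all genes (3.98%). By class, 7 of 15 synthetase windows, 3 of 8 transporter windows and 2 of 9 enzyme windows held a match, and in 11 windows a match read TGATGCAA. The windows below, 5′ to 3′ in the direction of the gene, have the matching letters in capitals; TTGCATCA and TTTCATCA are the element on the opposite strand. They lie at chr18:60275733-60276032 (minus strand) for Nars, chr2:62114753-62115052 (minus strand) for Tars, chr17:15193603-15193902 (minus strand) for Iars, chr19:55908232-55908531 (plus strand) for Aars and chr12:11664238-11664537 (plus strand) for Slc7a1. Each match is a run of letters, and binding was not measured.
Nars: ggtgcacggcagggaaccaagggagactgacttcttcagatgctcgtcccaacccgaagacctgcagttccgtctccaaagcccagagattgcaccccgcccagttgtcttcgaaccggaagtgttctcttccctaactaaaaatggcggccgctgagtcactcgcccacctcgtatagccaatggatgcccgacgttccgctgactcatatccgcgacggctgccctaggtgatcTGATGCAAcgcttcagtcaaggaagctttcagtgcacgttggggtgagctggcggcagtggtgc
Tars: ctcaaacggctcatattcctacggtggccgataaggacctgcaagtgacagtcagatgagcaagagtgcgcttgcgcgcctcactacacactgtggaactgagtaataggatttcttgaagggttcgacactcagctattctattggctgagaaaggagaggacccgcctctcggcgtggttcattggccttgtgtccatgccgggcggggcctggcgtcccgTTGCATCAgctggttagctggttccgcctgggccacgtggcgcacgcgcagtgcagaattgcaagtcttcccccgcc
Iars: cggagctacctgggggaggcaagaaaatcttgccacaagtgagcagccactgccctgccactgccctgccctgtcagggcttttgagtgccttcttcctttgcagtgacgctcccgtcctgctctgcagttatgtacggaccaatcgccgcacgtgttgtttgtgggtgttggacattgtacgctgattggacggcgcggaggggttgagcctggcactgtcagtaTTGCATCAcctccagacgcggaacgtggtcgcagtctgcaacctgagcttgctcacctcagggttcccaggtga
Aars: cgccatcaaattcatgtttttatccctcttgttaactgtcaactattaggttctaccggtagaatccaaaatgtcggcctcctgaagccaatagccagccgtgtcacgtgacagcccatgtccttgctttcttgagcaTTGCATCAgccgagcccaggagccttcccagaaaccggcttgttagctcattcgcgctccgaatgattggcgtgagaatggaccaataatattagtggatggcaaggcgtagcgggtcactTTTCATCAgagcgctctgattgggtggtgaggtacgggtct
Slc7a1: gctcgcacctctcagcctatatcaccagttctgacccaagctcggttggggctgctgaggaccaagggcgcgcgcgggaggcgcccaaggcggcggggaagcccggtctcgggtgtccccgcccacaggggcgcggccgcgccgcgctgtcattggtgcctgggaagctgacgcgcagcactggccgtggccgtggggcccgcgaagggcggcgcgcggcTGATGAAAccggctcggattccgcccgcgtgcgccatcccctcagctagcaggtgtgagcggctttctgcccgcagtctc
In the Nars, Tars, Iars and Slc7a1 windows the match began at position -14, -27, -24 and -30 from the start, and Aars held one match on each side of its start. Cars, Mars, Yars, Slc1a4, Slc38a1, Pycr1 and Got1 also held a match, at 18, -17, 39, -235, -142, -131 and -167 in that order. The matches were thus not confined to the bases just before the start. The 10 tested members with a match had a median log2 difference between high- and low-difference grafts of 0.68, and the 16 tested members whose window held none had 0.52. The ranges overlapped, from -0.22 to 1.50 with a match and from -0.95 to 1.49 without.

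The level of a gene is given as the log2 of its processed signal minus the 75th percentile of that array, so that 0 is a bright probe and negative levels are dimmer; a difference is a difference of group means on this log2 scale. Levels of different genes come from different probes and were not set against each other. Spots well above background made up 71.5% and 74.1% of gene spots on the anti-IL6R arrays, 70.2% and 64.5% on the prednisolone arrays, 66.5% and 65.3% on the high arrays, and 71.7% and 72.1% on the low arrays. Replicates correlated across genes at 0.992 for anti-IL6R, 0.956 for prednisolone, 0.981 for high and 0.987 for low. The treated arrays lay on 1 slide and the untreated arrays on another, so treatment and slide cannot be told apart, while high against low and anti-IL6R against prednisolone are comparisons within a slide. Kidney tissue was identified by its markers: all 10 proximal tubule genes followed and 9 of 10 loop and distal nephron genes were well above background on all 8 arrays.

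Most members had their highest group mean in untreated high-difference grafts. The mean was highest there for 28 of the 31 tested members, including 15 of 15 synthetases, 8 of 8 transporters and 5 of 8 enzymes. The exceptions were Psat1 and Got1, whose means were highest in anti-IL6R grafts, and Cth, highest in low-difference grafts. One array carried much of this: 23 of the 31 members reached their highest level of all 8 arrays on the second high array. Relative to each gene's mean over the 8 arrays, the median member stood at -0.26 and -0.07 on the anti-IL6R arrays, 0.16 and -0.30 on the prednisolone arrays, 0.23 and 0.65 on the high arrays, and -0.20 and -0.05 on the low arrays. The first prednisolone array thus lay nearer to the high arrays, and the second had the lowest member median of all. The second high array exceeded the first for 26 of 31 members, and the second prednisolone array exceeded its partner for 7 of 31. Over all genes tested these counts were 13159 and 12445 of 24461. The share of all genes with their highest mean in high grafts, or their highest level on the second high array, was not computed.

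**Figure D1:**
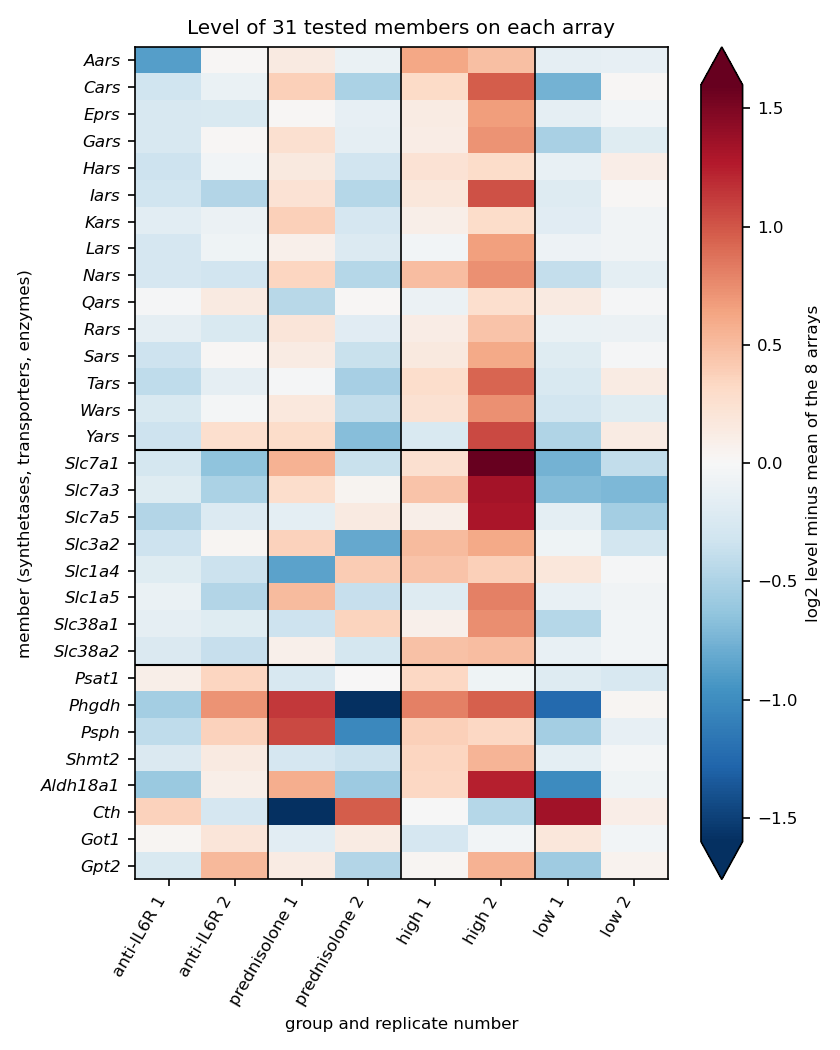
Level of each of the 31 tested members on each of the 8 arrays, as log2 level minus that gene's mean over the arrays (colour), with synthetases, transporters and enzymes separated by lines and arrays ordered anti-IL6R, prednisolone, high, low. The second high array is the highest for 23 members, and the prednisolone pair is split for Phgdh, Psph and Cth.

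High- against low-difference grafts asked how the weight mismatch showed in the graft early after surgery. All 15 tested synthetases and all 8 tested transporters had higher means in high-difference grafts, as did 6 of 8 enzymes; that made 29 of 31 members, against 53.4% of all genes. The median difference over the 31 members was 0.59, beside 0.04 over all genes tested. No single gene passed an adjusted p of 0.05 in limma's fit (the count was 0 among 24461, and 3431 had an unadjusted p below 0.05), so no member is called changed. At that unadjusted limit 10 members were higher and 0 lower, against 6.73% of all genes higher and 7.3% lower. The 2 groups did not overlap for 25 members with high above low and for 1 with high below low; the same held for 30.7% and 25.1% of all genes. Without the second high array the member median was 0.38, 26 of 31 differences stayed above 0 and 1 member was higher at the unadjusted limit, against 1.87% of all genes in that fit. Without the first high array the median was 0.78 and 13 members were higher at that limit, against 6.44% of all genes. Without the first low array there was 1 such member (1.67% of all genes) and without the second 6 (5.19%). The counts of 1 are thus near the share of all genes. In these left-out fits the lone array is assumed to vary like the other groups.

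**Figure D2:**
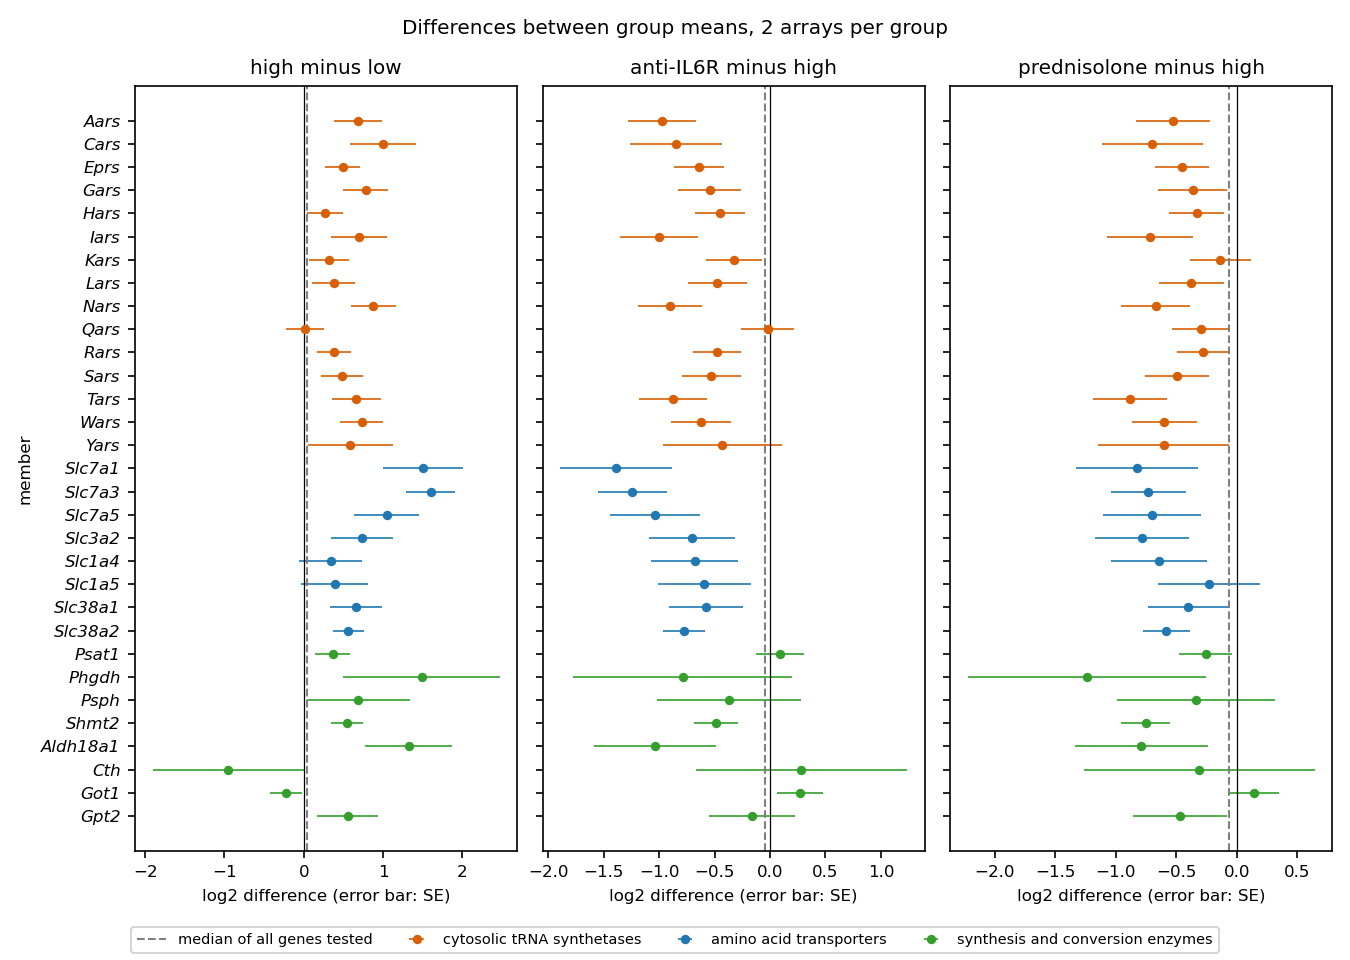
Log2 difference between group means for each tested member (points, error bars 1 SE, 2 arrays per group) in high minus low, anti-IL6R minus high and prednisolone minus high, coloured by class. All synthetases and transporters lie right of 0 in the left panel and left of 0 in the other panels, which share the high arrays; the dashed line is the median of all genes tested.

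Among the synthetases, Nars, Gars and Wars had the smallest p-values in this comparison. Nars, which charges asparagine, had levels of 1.39 and 1.35 in anti-IL6R grafts, 2.0 and 1.20 in prednisolone grafts, 2.15 and 2.39 in high grafts, and 1.28 and 1.51 in low grafts. Both high arrays lay above the other 6. Gars, for glycine, had levels of 2.42 and 2.69 in anti-IL6R grafts, 2.93 and 2.53 in prednisolone grafts, 2.80 and 3.40 in high grafts, and 2.16 and 2.48 in low grafts, where the high and low arrays did not overlap but the first prednisolone array exceeded one high array. Wars, for tryptophan, had levels of -0.73 and -0.52 in anti-IL6R grafts, -0.33 and -0.88 in prednisolone grafts, -0.24 and 0.24 in high grafts, and -0.78 and -0.68 in low grafts. Its high arrays were again the top pair. As background, Wars is also induced by interferon gamma in many cells, unlike most synthetases. The differences were 0.88 ± 0.29 (SE) for Nars (1.84-fold, adjusted p = 0.329), 0.78 ± 0.28 for Gars (1.72-fold, adjusted p = 0.342) and 0.73 ± 0.27 for Wars (1.66-fold, adjusted p = 0.344).

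The remaining tested synthetases ran from 0.02 for Qars (glutamine) to 1.0 for Cars (cysteine), with Iars (isoleucine) at 0.70, Aars (alanine) at 0.69, Tars (threonine) at 0.66, Yars (tyrosine) at 0.59, Eprs (glutamate and proline) at 0.49 and Sars (serine) at 0.49. Rars (arginine), Lars (leucine), Kars (lysine) and Hars (histidine) lay between 0.27 and 0.38. The only Hars probe carried the name Dnd1 on the array and was assigned to Hars by RefSeq accession. The high arrays lay above the low arrays without overlap for 13 of the 15, the exceptions being Qars and Yars. The same held for 30.7% of all genes. Dars (aspartate) was not tested because a high array had no unflagged spot; its 7 measured levels were 1.13 and 1.22 in anti-IL6R grafts, 1.32 and 0.88 in prednisolone grafts, 1.31 in the high graft measured, and 1.17 and 1.18 in low grafts. No probe was assigned to Mars or Vars. Gars, Iars, Lars, Nars and Rars each had a further fitted probe, and each further probe differed in the same direction. The further Gars probe put both high arrays, at 0.08 and 0.52, above the prednisolone arrays, at -0.36 and -0.55. The dim further Rars probe differed by 1.325 ± 0.50. A brighter Wars probe lacked an unflagged spot on the first high array and was not fitted.

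Among the transporters, the pair that import lysine and arginine, Slc7a3 (CAT-3) and Slc7a1 (CAT-1), showed the largest differences of the 31 members in the main fit. Under the other settings the Slc7a3 difference ran from 0.82 to 2.04 and the Slc7a1 difference from 0.83 to 2.18. Slc7a3 had levels of -4.93 and -5.24 in anti-IL6R grafts, -4.46 and -4.69 in prednisolone grafts, -4.28 and -3.40 in high grafts, and -5.43 and -5.46 in low grafts. Its probe was dim, though well above background on every array, and the order of the 4 groups was without overlap. For Slc7a1 the levels were -0.59 and -0.95 in anti-IL6R grafts, 0.25 and -0.67 in prednisolone grafts, -0.06 and 1.30 in high grafts, and -1.07 and -0.70 in low grafts. The high arrays were far apart, and the first prednisolone array lay between them. On a dimmer further Slc7a1 probe both prednisolone arrays, at -2.90 and -2.98, lay below the high arrays, at -2.18 and -1.425. Slc38a2 (SNAT2), a sodium-coupled importer of small neutral amino acids, had closely spaced high arrays, at 3.56 and 3.42 in anti-IL6R grafts, 3.87 and 3.51 in prednisolone grafts, 4.26 and 4.29 in high grafts, and 3.67 and 3.74 in low grafts. On this probe both high arrays exceeded all others. On a dimmer further Slc38a2 probe the high arrays were at 0.53 and 1.29, and the first prednisolone array, at 0.68, lay between them. The differences between high and low were 1.60 ± 0.31 for Slc7a3 (3.04-fold, adjusted p = 0.272), 1.50 ± 0.51 for Slc7a1 (2.83-fold, adjusted p = 0.330) and 0.57 ± 0.19 for Slc38a2 (1.48-fold, adjusted p = 0.332).

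Slc7a5 (LAT1), which exchanges large neutral amino acids, had levels of -2.57 and -2.32 in anti-IL6R grafts, -2.26 and -1.96 in prednisolone grafts, -2.02 and -0.80 in high grafts, and -2.26 and -2.66 in low grafts. The second high array stood alone, and the first overlapped the prednisolone arrays. Slc3a2 (4F2hc), the heavy chain that carries LAT1 to the membrane, had 3.83 and 4.19 in anti-IL6R grafts, 4.53 and 3.34 in prednisolone grafts, 4.67 and 4.76 in high grafts, and 4.08 and 3.86 in low grafts. Here the high arrays were close to each other and above all others. High minus low was 1.05 ± 0.41 for Slc7a5 (2.07-fold, adjusted p = 0.349) and 0.74 ± 0.39 for Slc3a2 (adjusted p = 0.410). Slc38a1, a relative of Slc38a2, differed by 0.66, and the neutral exchangers Slc1a5 (ASCT2) and Slc1a4 (ASCT1) by 0.39 and 0.34. Only Slc1a5 among the 8 had overlapping high and low arrays, while 30.7% of all genes had high above low without overlap. Slc7a11, the cystine importer xCT and a well-known ATF4 target, was not well above background on any of the 8 arrays and was not tested. Slc6a9, the glycine transporter GlyT1, lacked an unflagged spot on one anti-IL6R array and was not tested; its levels were -4.10 on the other anti-IL6R array, -3.41 and -4.37 in prednisolone grafts, -3.73 and -3.04 in high grafts, and -3.82 and -3.35 in low grafts.

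**Figure D3:**
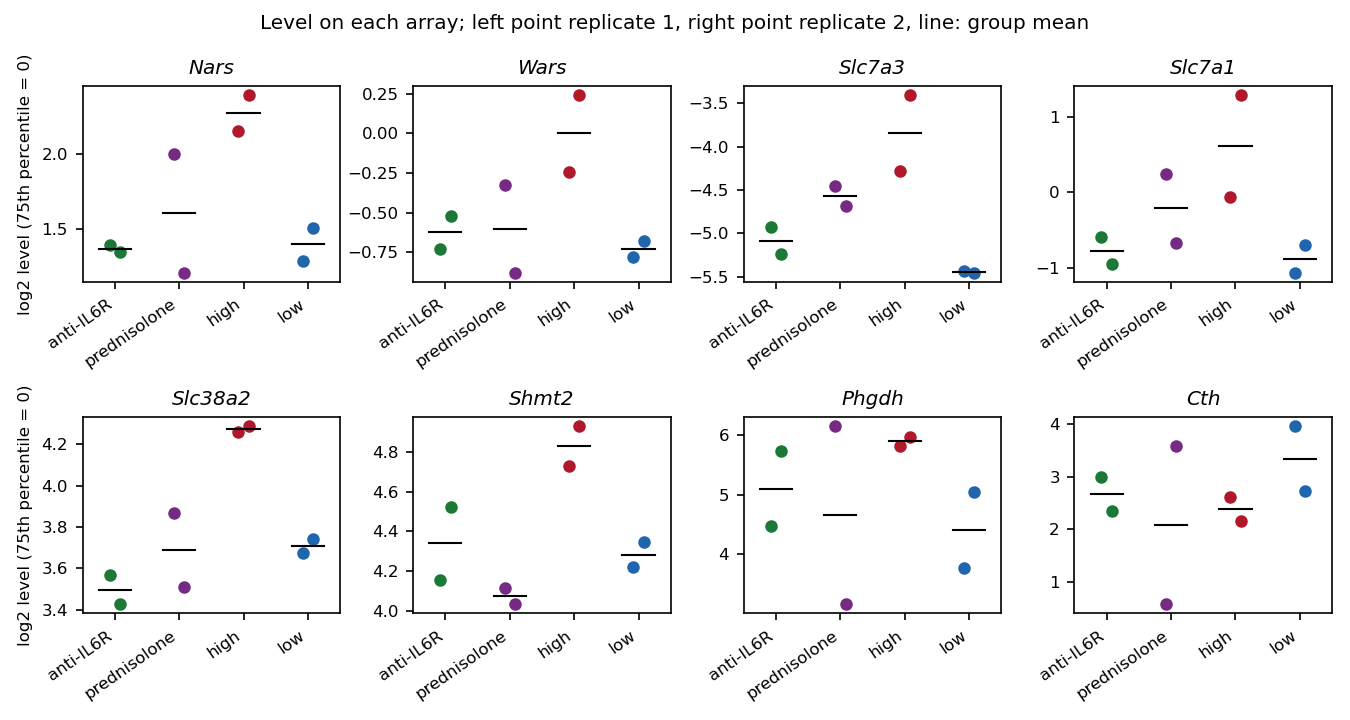
Log2 level on each array (points) and group mean (line) for 8 members, with groups ordered anti-IL6R, prednisolone, high, low and a separate vertical scale per gene. For Nars, Wars, Slc7a3, Slc38a2 and Shmt2 the 2 high arrays lie above the other 6; for Phgdh the prednisolone arrays hold the highest and the lowest of the 8 levels, and for Cth the lowest.

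The enzymes were less uniform. Shmt2, which turns serine into glycine and a one-carbon unit in mitochondria, had levels of 4.16 and 4.52 in anti-IL6R grafts, 4.12 and 4.03 in prednisolone grafts, 4.73 and 4.93 in high grafts, and 4.22 and 4.34 in low grafts, with the high arrays above all others. Aldh18a1, which starts proline and ornithine synthesis from glutamate, had 0.13 and 0.81 in anti-IL6R grafts, 1.30 and 0.14 in prednisolone grafts, 1.05 and 1.97 in high grafts, and -0.29 and 0.65 in low grafts. Its replicates lay far apart in each group. High minus low was 0.54 ± 0.20 for Shmt2 (1.46-fold, adjusted p = 0.345) and 1.33 ± 0.55 for Aldh18a1 (2.51-fold, adjusted p = 0.355).

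The serine pathway runs through Phgdh, Psat1 and Psph in that order. Phgdh had levels of 4.47 and 5.73 in anti-IL6R grafts, 6.14 and 3.16 in prednisolone grafts, 5.81 and 5.97 in high grafts, and 3.77 and 5.04 in low grafts. The prednisolone arrays held both its highest and its lowest level. Psph followed the same layout, at 1.70 and 2.47 in anti-IL6R grafts, 3.16 and 1.08 in prednisolone grafts, 2.48 and 2.43 in high grafts, and 1.56 and 1.97 in low grafts. Psat1 varied little, at -2.59 and -2.33 in anti-IL6R grafts, -2.93 and -2.68 in prednisolone grafts, -2.35 and -2.75 in high grafts, and -2.89 and -2.94 in low grafts. The differences between high and low were 1.49 ± 0.99 for Phgdh (adjusted p = 0.482), 0.69 ± 0.65 for Psph (adjusted p = 0.608) and 0.37 ± 0.22 for Psat1 (1.29-fold, adjusted p = 0.450), and none was at the unadjusted limit.

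Cth and Got1 lay the other way. Cth, which releases cysteine from cystathionine, had levels of 2.99 and 2.35 in anti-IL6R grafts, 0.56 and 3.59 in prednisolone grafts, 2.62 and 2.16 in high grafts, and 3.96 and 2.72 in low grafts. It was the 1 member whose high arrays both lay below the low arrays, by -0.95 ± 0.95 (adjusted p = 0.629), a difference no larger than its SE. On the prednisolone arrays it was low where Phgdh and Psph were high, and the reverse. Got1, the cytosolic aspartate aminotransferase, had 3.49 and 3.65 in anti-IL6R grafts, 3.29 and 3.60 in prednisolone grafts, 3.19 and 3.42 in high grafts, and 3.64 and 3.42 in low grafts. High and low overlapped for it, with a difference of -0.22 ± 0.21 (adjusted p = 0.599). Gpt2, the mitochondrial alanine aminotransferase, differed by 0.55 ± 0.39 (adjusted p = 0.499). Pycr1, which completes proline synthesis, was not well above background on any array, and no probe was assigned to Mthfd2, a mitochondrial folate enzyme.

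The groups also differed in tissue makeup as read from marker genes, and in bulk tissue fewer cells of a type and less RNA per cell cannot be told apart. Over 10 tested genes of T and NK cells, the array medians relative to each gene's mean over the arrays were 1.35 and 0.82 in anti-IL6R grafts, 0.79 and -0.85 in prednisolone grafts, -1.27 and -1.31 in high grafts, and 0.45 and 0.39 in low grafts, and all 10 were lower in high than in low; 3 of the 10 were well above background on all 8 arrays. The 8 monocyte, macrophage and dendritic cell genes had medians of 1.08 and 0.50 in anti-IL6R grafts, 1.26 and -0.63 in prednisolone grafts, -0.99 and -1.73 in high grafts, and -0.10 and 0.41 in low grafts. The high arrays were thus the lowest in both of these lists while the member median was highest on them. A gene was tested if well above background on both arrays of any 1 group, so genes can enter through the group where they are high. That favours their direction. The median of the 4 injured-tubule genes, like that of the members, was highest on the second high array. It was -0.79 and -0.11 in anti-IL6R grafts, 0.50 and -1.98 in prednisolone grafts, 0.45 and 2.37 in high grafts, and -0.93 and -0.35 in low grafts. For these genes the first prednisolone array thus lay slightly above the first high array. The 10 proximal tubule genes stood at 0.51 and 0.67 in anti-IL6R grafts, -0.33 and 0.11 in prednisolone grafts, 0.24 and -0.76 in high grafts, and 0.62 and 0.27 in low grafts. The 9 loop and distal nephron genes had medians of 0.43 and -0.19 in anti-IL6R grafts, -0.81 and 0.99 in prednisolone grafts, -0.62 and -1.08 in high grafts, and 1.02 and 0.32 in low grafts, and all 9 were lower in high than in low, by -1.59 in the median. The 6 endothelial genes had medians of 0.48 and 0.42 in anti-IL6R grafts, 0.22 and -0.0042 in prednisolone grafts, -0.31 and -1.1 in high grafts, and -0.09 and 0.30 in low grafts, and all 6 were lower in high than in low, by -0.81 in the median. Of 5 podocyte genes 4 were lower in high than in low, with a median of -0.54. The medians of the nephron, vessel, T and NK cell and monocyte lists therefore lay opposite to the members between high and low. The neutrophil list did not, with a median of 0.30 and 2 of 3 tested genes above 0. Of all genes, 53.4% were above 0 in this comparison. Of 3 B cell genes with a probe, none was well above background on all arrays and 2 were so on none. The part of cell makeup in the members' values was not tested.

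Genes of the same pathway outside the members were followed as lists. The amino acid response list, which holds ATF4, GCN2 and genes linked to them, had a median difference between high and low of 1.05 over 15 tested genes. Of these, 13 were above 0 (53.4% of all genes were) and 0 past the adjusted threshold. At the unadjusted limit 7 were higher and 1 lower, against 6.73% and 7.3% of all genes. Chac1, a glutathione-degrading enzyme, had levels of -2.62 and -2.72 in anti-IL6R grafts, -1.64 and -2.84 in prednisolone grafts, -0.01 and 0.67 in high grafts, and -3.18 and -2.87 in low grafts. Trib3, a pseudokinase that restrains ATF4, had 1.25 and 0.85 in anti-IL6R grafts, 2.52 and 1.64 in prednisolone grafts, 3.10 and 4.35 in high grafts, and 1.03 and 0.96 in low grafts. In both genes each high array lay above the other 6. The same was so for Asns (asparagine synthetase), at 1.44 and 1.89 in anti-IL6R grafts, 2.45 and 1.71 in prednisolone grafts, 3.06 and 4.03 in high grafts, and 1.52 and 1.91 in low grafts, and for Atf4 itself, at 4.43 and 4.19 in anti-IL6R grafts, 4.72 and 4.35 in prednisolone grafts, 5.23 and 5.74 in high grafts, and 4.49 and 4.37 in low grafts. High minus low was 3.36 ± 0.43 for Chac1 (adjusted p = 0.200), 2.73 ± 0.47 for Trib3 (adjusted p = 0.239), 1.83 ± 0.41 for Asns (adjusted p = 0.299) and 1.05 ± 0.25 for Atf4 (adjusted p = 0.309). Ddit3 (CHOP), a stress factor often induced together with these, showed no such layout, with 0.78 and 0.51 in anti-IL6R grafts, 0.68 and 0.65 in prednisolone grafts, 0.92 and 0.30 in high grafts, and 0.59 and 0.66 in low grafts.

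The 5 other parts of the cytosolic charging machinery differed by 0.36 in the median, 5 of 5 above 0 and 0 past the adjusted threshold, led by the scaffold protein Aimp1 at 0.62 and the phenylalanine synthetase subunit Farsb at 0.58. The mitochondrial synthetases, encoded by separate genes, had a smaller median of 0.20 over 14 genes, with 10 above 0; Yars2 differed by 0.46 and Sars2 by 0.50. The epithelial transporters of the tubule had a median of -0.42 over 11 genes, 8 of them below 0, and Slc43a2, a transporter of large neutral amino acids, stood at -0.95. Enzymes of amino acid breakdown and conversion had a median of -0.89 over 19 genes, 13 below 0, with Agxt2, a mitochondrial aminotransferase, at -0.89. Among 13 other genes of serine, glycine and folate metabolism the median was -0.25, while Mthfd1l, a mitochondrial folate enzyme, stood at 2.06. None of these genes passed the adjusted threshold, and 53.4% of all genes were above 0.

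**Figure D4:**
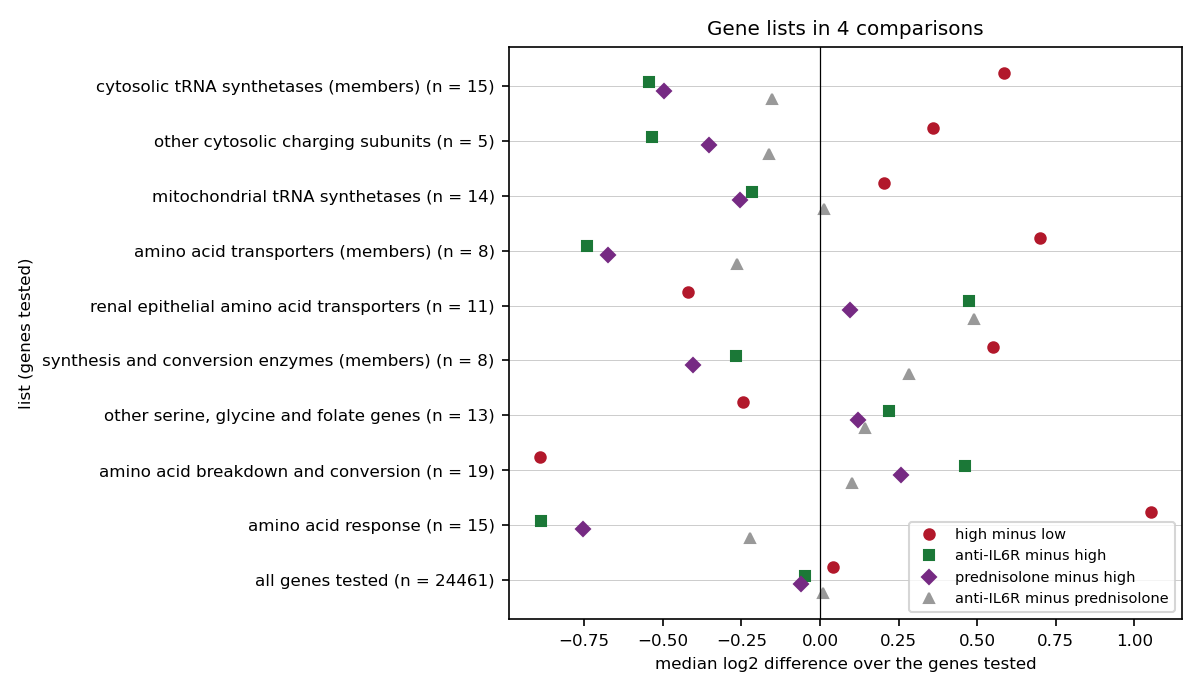
Median log2 difference of each gene list in 4 comparisons (symbols), with the number of genes tested in brackets; lists named as members are the 3 classes of the 31 members. In high minus low the cytosolic synthetases, the member transporters, the member enzymes and the amino acid response lie right of all genes tested, and the renal transporters and breakdown enzymes lie left; the 3 comparisons with high share its arrays.

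Treatment was compared with the untreated high-difference grafts to ask how blocking the IL-6 receptor or giving a glucocorticoid altered the graft. These comparisons use the high arrays already described, so their direction is not separate evidence, and each also crosses the 2 slides. In anti-IL6R grafts 28 of 31 members had lower means than in high grafts (53.9% of all genes did), with a median of -0.59 beside -0.05 over all genes. Again limma's fit put 0 genes past the adjusted threshold, and 4064 had an unadjusted p below 0.05; 10 members were lower and 0 higher at that limit, against 8.68% and 7.93% of all genes. The groups did not overlap for 23 members with anti-IL6R below high (33.5% of all genes) and 1 with it above (25.6%). Without the second high array the median was -0.39 and 3 members were lower at the unadjusted limit, against 2.53% of all genes in that fit; without the first the median was -0.85. Without the first anti-IL6R array 2 members were lower at that limit (3.43% of all genes), and without the second 4 were (2.92%).

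Class by class, the anti-IL6R medians were -0.74 for transporters, -0.55 for synthetases and -0.27 for enzymes. The transporter differences were -0.78 ± 0.19 for Slc38a2 (adjusted p = 0.206), -1.25 ± 0.31 for Slc7a3 (adjusted p = 0.207), -1.39 ± 0.51 for Slc7a1 (adjusted p = 0.275) and -1.03 ± 0.41 for Slc7a5 (adjusted p = 0.290). Among synthetases Aars had the smallest p; its levels were 2.20 and 3.09 in anti-IL6R grafts, 3.23 and 2.98 in prednisolone grafts, 3.70 and 3.56 in high grafts, and 2.93 and 2.95 in low grafts, with both high arrays above the rest. Aars differed by -0.98 ± 0.31 (adjusted p = 0.247), Nars by -0.91 ± 0.29 (adjusted p = 0.250) and Tars by -0.88 ± 0.31 (adjusted p = 0.265), with Wars at -0.62 ± 0.27 (adjusted p = 0.311). Of these only Wars was outside the unadjusted limit. Tars had levels of 0.72 and 0.97 in anti-IL6R grafts, 1.1 and 0.59 in prednisolone grafts, 1.40 and 2.05 in high grafts, and 0.88 and 1.25 in low grafts.

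The enzymes under anti-IL6R were divided. Shmt2 differed by -0.49 ± 0.20 (adjusted p = 0.301), Aldh18a1 by -1.04 ± 0.55 (adjusted p = 0.377) and Phgdh by -0.79 ± 0.99 (adjusted p = 0.692). Got1 was the member whose anti-IL6R arrays both lay above the high arrays, by 0.27 ± 0.21 (adjusted p = 0.518), and Psat1 (0.09 ± 0.22, adjusted p = 0.853) and Cth (0.28 ± 0.95, adjusted p = 0.894) overlapped. For Psat1 the sign was negative, -0.13, with normexp background correction. T and NK cell genes, with 10 of 10 above 0 and a median of 2.43, and monocyte genes, with 8 of 8 above 0 and a median of 2.26, lay opposite to the members in this comparison. So did endothelial genes, with 6 of 6 above 0 and a median of 1.24. Loop and distal nephron genes also did, with 9 of 9 above 0 and a median of 1.14. Of the endothelial genes 5 were higher at the unadjusted limit, against 7.93% of all genes. Of all genes, 53.9% lay below 0. Genes can enter the test through the group where they are high, which favours this direction. Well above background on all 8 arrays were 3 of the 10 T and NK cell genes. The part of these lists was not tested.

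In prednisolone grafts 30 of 31 members had lower means than in high grafts (56.1% of all genes did), with a median of -0.53 beside -0.06 over all genes and Got1 the exception at 0.14. The prednisolone arrays were the least alike pair, and the groups did not overlap for 11 members, all with prednisolone below high, against 23.6% of all genes. The number of genes past the adjusted threshold in limma's fit was 0, and 2807 had an unadjusted p below 0.05; 3 members were lower and 0 higher at that limit, against 6.99% and 4.49% of all genes. A count of 3 in 31 is near the share of all genes. Those 3 were Shmt2 (-0.75 ± 0.20, adjusted p = 0.338), Slc38a2 (-0.58 ± 0.19, adjusted p = 0.379) and Tars (-0.88 ± 0.31, adjusted p = 0.389). The median depended on single arrays, being -0.28 without the second prednisolone array, -0.74 without the first, -0.30 without the second high array and -0.73 without the first. In the same order, 3, 11, 1 and 9 members were lower at the unadjusted limit, against 9.5%, 13.1%, 2.98% and 6.76% of all genes in those fits, so that the counts of 3 and 1 are near the share of all genes.

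Of the other members, Nars differed by -0.67 ± 0.29 (adjusted p = 0.445), Wars by -0.60 ± 0.27 (adjusted p = 0.456), Slc7a3 by -0.73 ± 0.31 (adjusted p = 0.443) and Slc3a2 by -0.78 ± 0.39 (adjusted p = 0.481). In Nars and Wars, the first prednisolone array lay between the high and low arrays and the second below the low arrays. Slc7a5 (-0.70 ± 0.41, adjusted p = 0.525), Aldh18a1 (-0.79 ± 0.55, adjusted p = 0.583), Psat1 (-0.26 ± 0.22, adjusted p = 0.644) and Phgdh (-1.24 ± 0.99, adjusted p = 0.626) had overlapping arrays. Phgdh was 0.25 higher than in high grafts once the second prednisolone array was left out. That array also had the lowest share of spots above background of the 8 and the lowest injured-tubule median. Over both prednisolone arrays, monocyte genes (8 of 8 above 0, median 1.75), T and NK cell genes (9 of 10, 1.30), loop and distal nephron genes (9 of 9, 0.79) and endothelial genes (6 of 6, 0.78) lay above high grafts, and their part was not tested. Of all genes, 56.1% lay below high grafts. The filter limit given for the marker genes under anti-IL6R holds here too.

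Between the treatments the members differed little. In anti-IL6R minus prednisolone, within 1 slide and without the high arrays, the member median was -0.12 beside 0.01 over all genes, with 10 members above 0 and 21 below (48.7% of all genes were below). In limma's fit 0 genes passed the adjusted threshold and 850 had an unadjusted p below 0.05; no member was among these; 2.8% of all genes were higher and 0.679% lower at that limit. The groups did not overlap for 2 members with anti-IL6R above, Shmt2 (0.27 ± 0.20) and Psat1 (0.35 ± 0.22), and for 3 below, Slc7a3 (-0.51 ± 0.31), Slc7a5 (-0.33) and Eprs (-0.19), against 13.2% and 12.1% of all genes. Slc7a1 (-0.56 ± 0.51), Slc38a2 (-0.19 ± 0.19), Aars (-0.45 ± 0.31), Rars (-0.20 ± 0.21), Qars (0.28 ± 0.24) and Gpt2 (0.30 ± 0.39) had overlapping arrays. The adjusted p was 0.999 for each of the members named here. Rars had levels of 3.31 and 3.21 in anti-IL6R grafts, 3.65 and 3.27 in prednisolone grafts, 3.57 and 3.90 in high grafts, and 3.35 and 3.36 in low grafts. Qars had 0.74 and 0.91 in anti-IL6R grafts, 0.31 and 0.78 in prednisolone grafts, 0.67 and 1.03 in high grafts, and 0.91 and 0.75 in low grafts, the flattest layout among the synthetases for high against low. Gpt2 had -4.40 and -3.63 in anti-IL6R grafts, -4.02 and -4.62 in prednisolone grafts, -4.11 and -3.59 in high grafts, and -4.71 and -4.09 in low grafts. Without the first prednisolone array the member median was 0.08, and without the first anti-IL6R array it was -0.0027. Without the second prednisolone array it was -0.35, and without the second anti-IL6R array -0.18. The median thus depended on single arrays of both groups. For 3 of the 9 members with several fitted probes, the probes differed in sign here.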

How the data were processed

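Total RNA (1 µg) of 8 rat kidney grafts was labelled with Cy3 and hybridised to 1-colour Agilent arrays, per the labels' protocols. Per the file headers, the authors quantified each array with Feature Extraction 9.5.1.1 and deposited, per spot, a processed signal intensity (background-subtracted) with flags; their deposited value table holds the same intensity times 1 factor per array, with no source used here saying how it was chosen. Control and flagged spots were left out, log2 signals were taken, and arrays were scaled by subtracting the 75th percentile. Of 41012 probes, 28686 were measured on all arrays and, in 1 group or more, well above background on each of its arrays; the brightest per gene gave 24461 genes. Probe names were updated through RefSeq GRCr8 (10735 by accession, 5577 by symbol, 3730 by synonym, 20970 kept). All 8 arrays were fitted together with limma 3.58.1 (R 4.3.3, eBayes; 4 residual and 2.38 prior degrees of freedom), with Benjamini-Hochberg adjustment over all genes and a threshold of 0.05. The number of arrays limits precision. Lists were described by counts and medians, without a test. The fit was tested on simulated data.

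The 38 members, the pathway lists and the markers were chosen with earlier results of these data known. In each comparison the 3 members per class with the smallest p were given in full, with Slc7a11, Slc7a5, Psat1, Phgdh, Mthfd2 and Wars always; from each pathway list genes were taken from the 3 with the smallest p in high minus low, plus Atf4, Ddit3, Asns, Chac1 and Trib3. Psph, Cth and other members were described after their values were seen. Replicate numbers were not used to pair samples. Alternatives were other background correction, normalization, filters, the authors' table, probe averaging, eBayes settings, only the groups compared, a replicate block and each array left out.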

Additional observations from a re-analysis of the deposited data

How the results depend on the processing

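None of the 31 tested members passed the adjusted threshold under any of the 17 other settings (9 alternatives and 8 left-out arrays); their smallest adjusted p was 0.101 for high minus low, 0.0878 for anti-IL6R minus high, 0.0847 for prednisolone minus high and 0.268 for anti-IL6R minus prednisolone. The members given in full kept their direction in 187 of 187 values for high minus low, 217 of 221 for anti-IL6R minus high, 186 of 187 for prednisolone minus high and 150 of 153 for anti-IL6R minus prednisolone. The count of genes called, 0 in each comparison, was 3, 7, 4 and 2 in that order with quantile normalization, and 1 in high minus low and 1 in anti-IL6R minus high with the authors' deposited table. With 1 array left out it ran from 0 to 42 for high minus low, 0 to 192 for anti-IL6R minus high, 0 to 221 for prednisolone minus high and 0 to 132 for anti-IL6R minus prednisolone. The largest counts came without the first high array for high minus low, without either prednisolone array for anti-IL6R minus high, and without the first prednisolone array for the others. The member median ran, with 1 array left out, from 0.38 to 0.78, -0.85 to -0.39, -0.74 to -0.28 and -0.35 to 0.076 in the same order, and the sign of the last turned only without the first prednisolone array. Psat1 in anti-IL6R minus high was -0.13 with normexp, -0.015 with the deposited table, and -0.11 to 0.29 with an array left out. Phgdh in prednisolone minus high ran from -2.73 to 0.25 with an array left out. In anti-IL6R minus prednisolone, Rars was 0.0038 with the mean of its probes, and Gpt2 was -0.084 with normexp and -0.079 to 0.68 with an array left out. The causes were not tested. With normexp the median of all genes was 0.12, -0.18 and -0.11 in the comparisons with high; relative to it the members lay at 0.38, -0.37 and -0.32. A replicate block left the count of called genes at 0 and the member median at 0.59 in high minus low; same-numbered arrays did not deviate together throughout, so the block pairs nothing known from the labels.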
